A study of Mus musculus with 6 samples.

Results

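The genes described here are 32 genes of the p53 response and of apoptosis, chosen by name: the p53 gene and its regulators, genes that p53 induces, death receptors, members of the Bcl-2 family, the apoptosome and survival proteins. Of the 32, 29 had at least 1 array feature with that gene symbol, among 22485 genes named on the array, and these 29 were read on 46 features. Trp53, Bax and Gdf15 had no feature named here and were not analysed. For each gene the feature with the highest mean over the 6 arrays was used. Fas and Bcl2 lay in the lowest 25% of features by mean signal and are described without a test, which left 27 of 17399 genes tested.

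The transcription factor p53 is held at a low level by Mdm2, a ubiquitin ligase, and by its partner Mdm4. When DNA is damaged or other stress is sensed, p53 is released, and it induces genes that halt the cell cycle, repair damage or start apoptosis. Mdm2 is itself induced by p53, so that its messenger reports p53 activity and also limits it. In the intrinsic path of apoptosis, BH3-only proteins of the Bcl-2 family free Bax and Bak1 to open the mitochondrial outer membrane, and the released cytochrome c assembles the apoptosome from Apaf1 and Casp9. Mouse blastocysts normally lose some cells to apoptosis, and culture outside the mother is known to raise p53 activity in embryos.

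Signal was measured in whole B6C3F1 mouse blastocysts on day 5, after culture in CCM-30 medium for 72 hours with 400 nM of a synthetic RNA. The 3 mimic arrays hold RNA from embryos given a mimic of the microRNA miR-30d, and the 3 scramble arrays RNA from embryos given a scrambled oligonucleotide, for which the labels name the dye Alexa 488. All embryos came from females stimulated with gonadotropins and were flushed from the oviduct, with 30 embryos pooled for each condition. No untreated embryos were arrayed, so an effect of either oligonucleotide as such, or of the dye, cannot be told apart from one of miR-30d, and what culture and the RNA did in both groups is not visible.

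Of the markers of trophectoderm, inner cell mass and primitive endoderm, 18 of 18 passed the filter on dim features. So did 17399 of all 22485 genes, so passing does not by itself identify the stage. The mean log2 signal of each of these 3 lists was as follows: trophectoderm read 12.94 to 13.07 on scramble arrays and 12.69 to 12.98 on mimic arrays, inner cell mass 9.46 to 9.84 and 9.74 to 9.83, and primitive endoderm 9.37 to 9.81 and 9.75 to 10.00. Of 21 markers of 6 other cell types 11 passed the filter, and list means were 6.95 to 8.73. The highest of these belonged to the cumulus and endothelial lists, whose ranges on scramble and mimic arrays overlapped and in which Foxl2 (mean log2 signal 12.69) and Kdr (10.46) were bright. Scramble replicate 1 stood apart from the other arrays. Its median correlation with the others over all tested genes was 0.912, against 0.945 for mimic replicate 1 and 0.977 to 0.979 for the remaining 4. On 288 genes that each had 10 features for the same transcript, the median SD over those features, after removal of each feature's own level, was 0.375 log2 units on scramble replicate 1 and 0.281 on mimic replicate 1, and 0.155 to 0.175 on the remaining 4. Values without scramble replicate 1, or without both replicate 1 arrays, are therefore given beside many of the results below.

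The promoters of 5 of the genes are shown because they carry at least 1 decamer of the kind that p53 recognises in pairs and because the genes differ in how they read on the arrays. p53 binds as a tetramer to a pair of decamers, each known as the p53 consensus decamer. The decamer is its own reverse complement, so a single search covers both strands. In windows from 250 bases before to 50 bases after annotated starts (RefSeq, GRCm38.p6), 26 of the 32 genes had a window and 8 of them (30.8%) held at least 1 exact decamer, while 9.55% of all 27025 genes with a window did. The 8 were Cdkn1a, Ccng1, Mdm2, Aen, Sesn1, Ei24, Bax and Trp53. Exact decamers are in capitals in the 5 sequences below, written from 5′ to 3′ along the gene's strand.
Cdkn1a promoter, chr17:29090729-29091028, plus strand: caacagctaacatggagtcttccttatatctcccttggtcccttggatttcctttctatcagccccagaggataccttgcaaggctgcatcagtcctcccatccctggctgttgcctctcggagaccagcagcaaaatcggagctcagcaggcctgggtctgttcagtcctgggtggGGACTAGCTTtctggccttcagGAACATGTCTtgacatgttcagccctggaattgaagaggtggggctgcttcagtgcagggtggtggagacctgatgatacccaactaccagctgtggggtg
Ccng1 promoter, chr11:40755237-40755536, minus strand: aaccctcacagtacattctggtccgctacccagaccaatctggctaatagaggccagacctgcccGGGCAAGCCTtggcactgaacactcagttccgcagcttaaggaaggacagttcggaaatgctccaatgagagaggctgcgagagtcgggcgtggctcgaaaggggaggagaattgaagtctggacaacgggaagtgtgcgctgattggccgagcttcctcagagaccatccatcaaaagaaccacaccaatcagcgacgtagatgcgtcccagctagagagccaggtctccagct
Mdm2 promoter, chr10:117710709-117711008, minus strand: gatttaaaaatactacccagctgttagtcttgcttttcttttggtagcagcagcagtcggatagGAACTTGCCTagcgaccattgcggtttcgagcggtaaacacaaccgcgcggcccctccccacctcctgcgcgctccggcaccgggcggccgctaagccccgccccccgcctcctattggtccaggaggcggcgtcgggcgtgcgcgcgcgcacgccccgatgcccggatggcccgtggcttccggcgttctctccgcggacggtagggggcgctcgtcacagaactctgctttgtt
Aen promoter, chr7:78895677-78895976, plus strand: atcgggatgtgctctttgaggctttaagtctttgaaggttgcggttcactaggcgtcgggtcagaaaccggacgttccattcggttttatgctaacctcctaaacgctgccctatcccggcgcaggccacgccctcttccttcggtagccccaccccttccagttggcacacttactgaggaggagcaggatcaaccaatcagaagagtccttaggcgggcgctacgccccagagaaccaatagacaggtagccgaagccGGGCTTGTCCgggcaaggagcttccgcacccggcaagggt
Sesn1 promoter, chr10:41887189-41887488, plus strand: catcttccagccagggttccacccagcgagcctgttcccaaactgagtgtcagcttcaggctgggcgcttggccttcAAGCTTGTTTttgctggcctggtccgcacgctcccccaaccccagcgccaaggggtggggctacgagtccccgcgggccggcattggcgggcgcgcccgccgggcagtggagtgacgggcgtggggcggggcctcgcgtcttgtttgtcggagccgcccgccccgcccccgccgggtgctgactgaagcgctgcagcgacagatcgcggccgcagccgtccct
The Cdkn1a window, 1 of 2 for this gene, held 2 exact decamers with 12 bases between them, the first 73 bases before the start. Decamers with a mismatch were not searched for, so a site with 1 inexact decamer is not marked as a pair. Windows were not matched to the transcripts that the array features read. In Ccng1 the decamer began 185 bases before the start, in Mdm2 186 and in Sesn1 173, and in Aen it lay 10 bases after the first of its starts. A match describes the letters only, and binding was not measured.

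Mdm2 had a log2 signal of 11.34, 12.12 and 12.10 on scramble replicates 1 to 3 and of 12.04, 12.84 and 12.77 on the mimic arrays of the same numbers. The replicate 1 array was the lowest of its group in both groups, and the groups overlapped, but each mimic array was above the scramble array of the same number, by 0.70, 0.72 and 0.67. The log2 difference of the means was 0.69 (SE 0.27, 95% interval 0.07 to 1.31), a 1.62-fold difference, which did not pass over all genes (limma adjusted p = 0.972). With the replicate number as a block, a pairing that the labels do not state, the standard error was 0.08. The limma adjusted p was then 0.189, the lowest of the 27 genes and still above the threshold of 0.05. Without scramble replicate 1 the difference was 0.44. In these embryos of mixed cell types, more cells of a type and more RNA per cell cannot be told apart, here and below. Mdm4 did not share this pattern, with a log2 difference of -0.23 (SE 0.28) that was 0.05 without scramble replicate 1. That array read 9.64 against 8.73 and 8.88 on the other scramble arrays. A second, dimmer Mdm4 feature had -0.03 (SE 0.26) and overlapping groups.

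**Figure D1:**
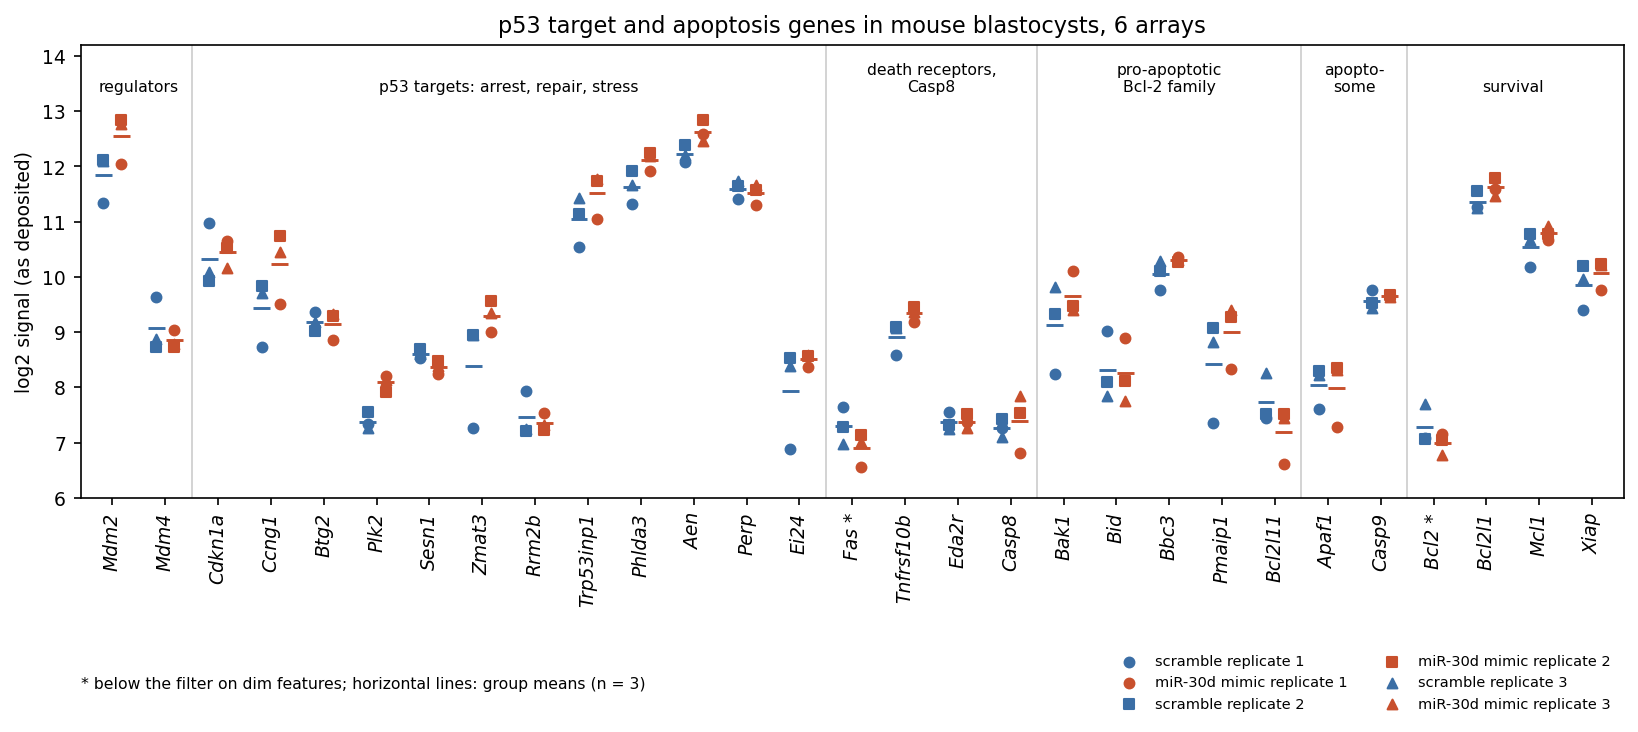
Log2 signal as deposited (y axis) of the 29 genes with a feature (x axis, ordered by role) on each of the 6 arrays. Blue points are scramble and orange points mimic arrays, the marker shape gives the replicate number and horizontal lines are group means. Scramble replicate 1 (blue circles) is the lowest array for 13 of the 27 genes tested, among them Zmat3, Ei24 and Pmaip1, as it is for 5559 of all 17399.

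Over the 27 genes tested, 19 had a higher mean with the mimic and 8 a lower one, beside 53.2% of all genes tested with a higher mean. Their median log2 difference was 0.25, against 0.02 over all genes. None passed at an adjusted p of 0.05 in the limma fit, as none did of the 17399 genes (0% called). At an unadjusted p under 0.05, 4 of the 27 were higher, namely Mdm2, Plk2, Phlda3 and Aen, and 0 lower, beside 1.66% of all genes higher and 1.51% lower. The 3 mimic values lay above the 3 scramble values in 4 genes (Plk2, Zmat3, Aen and Tnfrsf10b), beside 5.58% of all genes, and below them in Sesn1, beside 4.12%. The smallest p that an exact two-sided permutation test of 3 arrays against 3 can give is 0.1, which these 5 genes reached. Without scramble replicate 1 the count of higher genes was 22, beside 50.7% of all genes, and the median was 0.13. Without both replicate 1 arrays these values were 21, beside 55.0%, and 0.18. These genes were chosen with results of these data known, so the counts describe them and are not a test.

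Same-numbered arrays were also compared with each other, since their deviations from the group means correlated. The labels state no pairing, and it was read from these same values. Deviations of scramble replicate 2 and mimic replicate 3 also correlated (0.185), as did those of scramble replicate 3 and mimic replicate 2 (0.124). Counts by pair and with the block therefore rest on an assumed pairing. In 13 of the 27 genes the mimic array was above its scramble array in each of the 3 pairs, beside 19.1% of all genes, and in Sesn1 and Perp it was below in each, beside 13.8%. The median difference of the 27 genes was 0.34 in pair 1, 0.17 in pair 2 and 0.21 in pair 3, against 0.03, 0.0 and 0.05 over all genes. With the replicate block, 10 of the 27 had an unadjusted p under 0.05 and all 10 were higher, beside 3.95% of all genes higher and 3.29% lower. None of the 27 passed after adjustment over all genes, where 1 gene did (0.00575%).

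**Figure D2:**
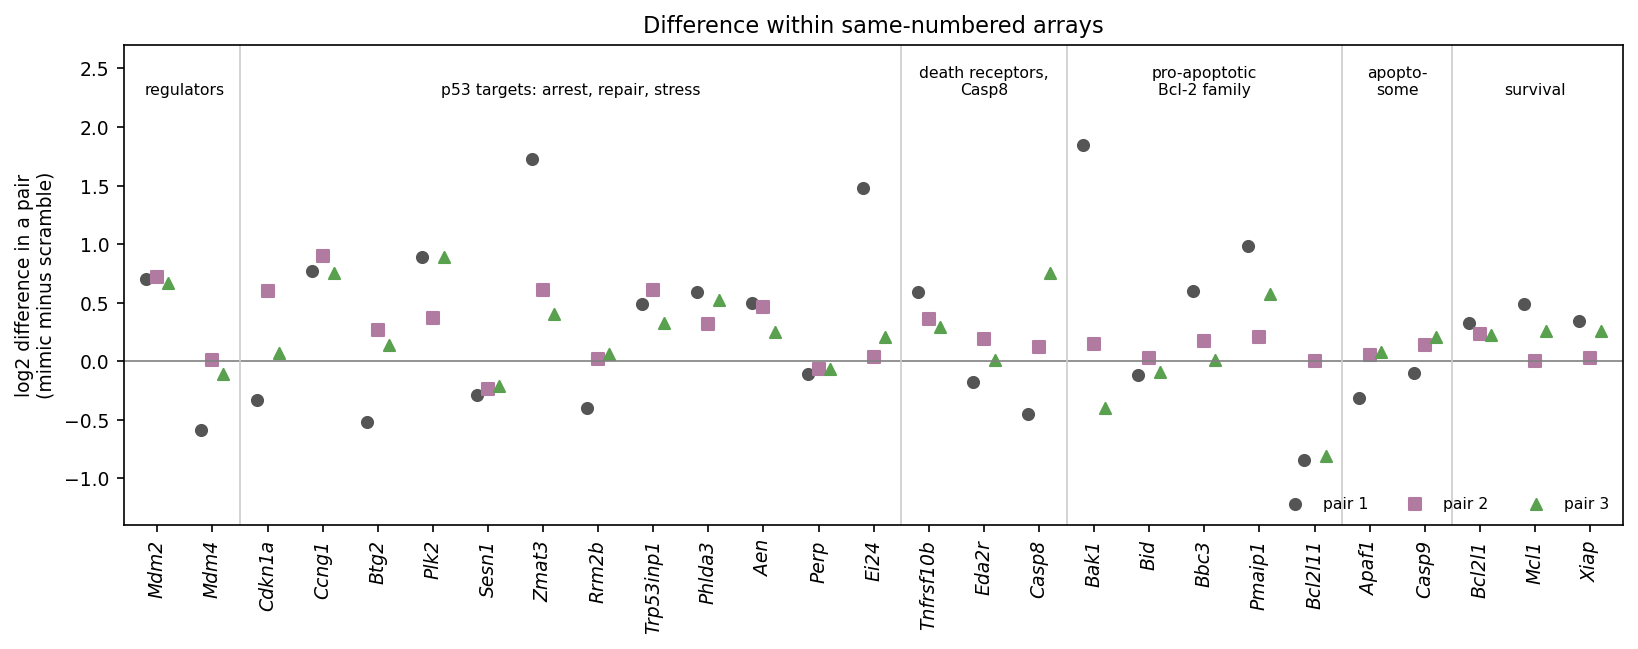
Log2 difference, mimic minus scramble (y axis), within the arrays of replicate 1, 2 and 3 for each of the 27 genes tested (x axis, by role). Mdm2 (0.67 to 0.72) and Ccng1 (0.75 to 0.90) have nearly the same difference in each pair, while Zmat3, Ei24 and Bak1 are widest in pair 1.

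Among the 12 tested p53 targets that act in arrest, repair and stress control, 8 had a higher mean and 4 a lower one, with a median log2 difference of 0.44. Without scramble replicate 1 these values were 10 of 12 higher and a median of 0.28. Plk2, a polo-like kinase induced by p53, read 7.33, 7.55 and 7.26 on scramble and 8.21, 7.92 and 8.14 on mimic arrays. All mimic values were above all scramble values, and the log2 difference of 0.72 (SE 0.26) stayed between 0.65 and 0.80 with each array left out in turn. Without scramble replicate 1 it was 0.69, close to the value over all arrays. The scramble values of Plk2 lay not far above the filter level of 7.16, and the detection limit of this feature is not known. Aen, a nuclease that takes part in p53-driven apoptosis, read 12.08, 12.38 and 12.21 on scramble and 12.59, 12.85 and 12.46 on mimic arrays, a log2 difference of 0.40 (SE 0.15). A second Aen feature had 0.44, with overlapping groups. Phlda3, which restrains Akt signalling, read 11.32, 11.91 and 11.67 against 11.91, 12.24 and 12.19, and the groups met at 11.91. Its log2 difference was 0.48 (SE 0.17) and 0.32 without scramble replicate 1.

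Ccng1, which encodes cyclin G1, a partner of Mdm2 in the feedback on p53, read 8.74, 9.84 and 9.71 on scramble and 9.51, 10.75 and 10.46 on mimic arrays. As in Mdm2, the replicate 1 arrays were the lowest of both groups and the pairs differed by 0.77, 0.90 and 0.75. The log2 difference was 0.81 (SE 0.38), a 1.75-fold difference. Dropping scramble replicate 1 gave 0.46, and dropping both replicate 1 arrays gave 0.83. Zmat3, an RNA-binding zinc finger protein, had the widest difference of the set, 0.91 (SE 0.45), with 7.27, 8.95 and 8.95 on scramble and 9.00, 9.56 and 9.35 on mimic arrays. The reading of 7.27 on scramble replicate 1 stood alone, and without that array the difference was 0.35. Ei24, a protein of the endoplasmic reticulum, showed the same feature more strongly, with 6.88 on scramble replicate 1 and 8.37 to 8.59 on the other 5 arrays, so that its log2 difference of 0.58 (SE 0.44) was 0.06 without it. In 4 of the 27 genes, Zmat3, Ei24, Pmaip1 and Bak1, scramble replicate 1 was more than 1 log2 unit below both other scramble arrays. This is a larger share than the 4.37% of all genes tested. Whether the wider spread of that array accounts for these readings was not tested.

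Trp53inp1, a p53-induced nuclear protein that promotes autophagy and cell death, gave opposite readings on its 2 features. The brighter feature had 10.55, 11.14 and 11.43 on scramble and 11.04, 11.74 and 11.77 on mimic arrays, a log2 difference of 0.48 (SE 0.26) that was 0.24 without scramble replicate 1. The other feature had -0.70 (SE 0.42), with 9.72 on scramble replicate 1 and 7.44 on mimic replicate 1 as its extremes, and the mean of both features differed by -0.11. The direction for this gene is thus not settled by the array. Sesn1, a sestrin that limits mTORC1 and oxidative stress, was the only one of the 27 with all mimic values (8.25, 8.47 and 8.39) below all scramble values (8.54, 8.70 and 8.60). Its log2 difference of -0.24 (SE 0.24) was between -0.29 and -0.18 with each array left out, and its adjusted p was 0.972. Perp, a desmosomal p53 target, had -0.08 (SE 0.15), Btg2, an antiproliferative factor, had -0.04 (SE 0.21), and Rrm2b, the p53-inducible ribonucleotide reductase subunit, had -0.11 (SE 0.26). The 95% interval was -0.42 to 0.25 for Perp, -0.53 to 0.45 for Btg2 and -0.70 to 0.49 for Rrm2b. A second Rrm2b feature, with a mean log2 signal of 7.30 against 7.41, had a log2 difference of -0.43 (SE 0.26) and overlapping groups.

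Cdkn1a encodes p21, the inhibitor of cyclin-dependent kinases through which p53 arrests the cell cycle, and its value depended on the feature chosen. It was read on 11 features, 10 of them for the same transcript. The feature with the highest mean read 10.97, 9.93 and 10.09 on scramble and 10.65, 10.53 and 10.16 on mimic arrays, a log2 difference of 0.12 (SE 0.27). The reading of 10.97 is alone among the 10 features on scramble replicate 1, where the other 9 lay between 9.67 and 10.12. The other 9 features had log2 differences from 0.24 to 0.52. In 5 of the 10 all mimic values were above all scramble values, beside 5.58% of all genes tested. The 10 features were read on the same 6 arrays, so they are not independent of each other. Averaged over the 10 features, Cdkn1a read 9.96, 9.81 and 9.87 on scramble and 10.40, 10.35 and 10.00 on mimic arrays. These group means were 9.88 ± 0.08 and 10.25 ± 0.22 (SD, n = 3 each) and did not overlap, a log2 difference of 0.37 (exact permutation p = 0.1, two-sided). This average was chosen after the values had been seen. The feature for the other transcript had 0.08 (SE 0.28).

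**Figure D3:**
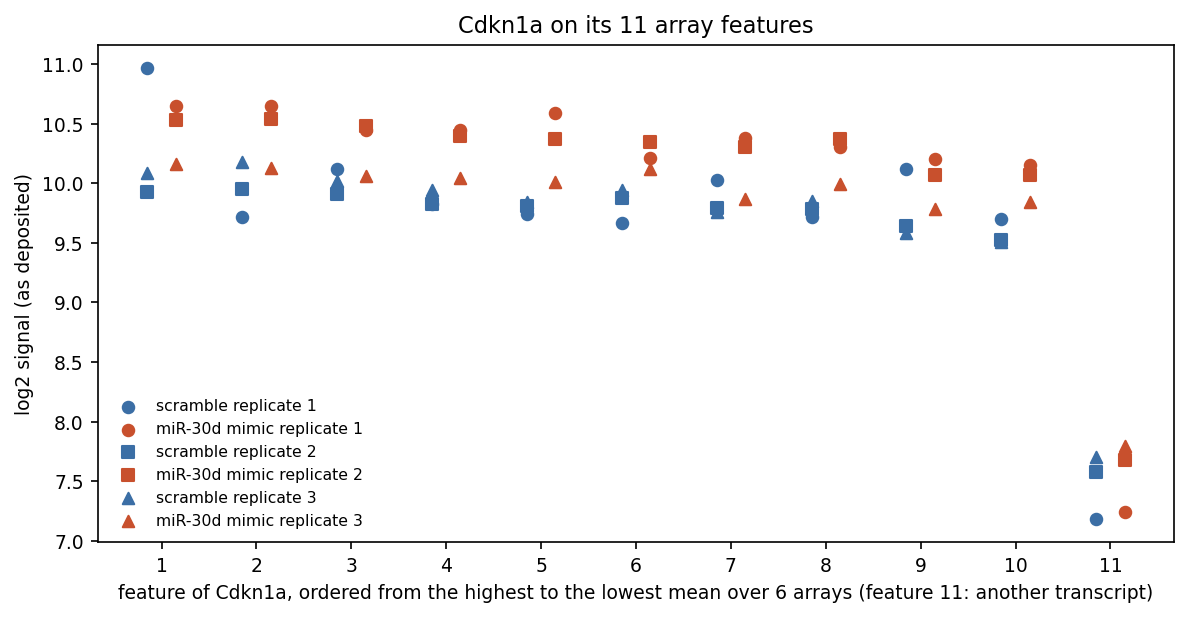
Log2 signal as deposited (y axis) of the 11 features of Cdkn1a (x axis, from the highest to the lowest mean), with blue scramble and orange mimic arrays and the replicate number as marker shape. The 10.97 of scramble replicate 1 on the first feature is apart from its other readings of 9.67 to 10.12, and mimic replicate 3 is the lowest mimic array on each of the first 10 features.

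Of the death receptors, Tnfrsf10b, the mouse TRAIL receptor, read 8.59, 9.10 and 9.08 on scramble and 9.18, 9.46 and 9.37 on mimic arrays. The groups did not overlap and the log2 difference was 0.41 (SE 0.22), with 0.25 to 0.50 when each array was left out. Eda2r, a receptor of ectodysplasin A2, had 0.01 (SE 0.21). A second Eda2r feature, with a mean log2 signal of 7.27 against 7.38, had 0.26 (SE 0.25) and overlapping groups. Casp8, the caspase that death receptors activate, had 0.14 (SE 0.28), with mimic values from 6.82 to 7.85 on either side of the scramble values. Fas, below the filter, read 6.97 to 7.65 on scramble and 6.56 to 7.14 on mimic arrays.

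The pro-apoptotic members of the Bcl-2 family were split. Of 5 tested, 3 had a higher mean and 2 a lower one, and none had groups apart. Bbc3, the BH3-only protein Puma, read 9.76, 10.10 and 10.29 on scramble and 10.36, 10.27 and 10.30 on mimic arrays, a log2 difference of 0.26 (SE 0.17) that was 0.11 without scramble replicate 1. Pmaip1, the BH3-only protein Noxa, read 7.35, 9.07 and 8.83 against 8.33, 9.28 and 9.40, and its log2 difference of 0.59 (SE 0.49) went to 0.05 when scramble replicate 1 was dropped and to 0.39 when both replicate 1 arrays were. Both were higher in each of the 3 pairs, Bbc3 by only 0.01 in pair 3. Bak1, the pore-forming effector, had 0.54 (SE 0.39), which became 0.09 after dropping scramble replicate 1 and -0.12 after dropping both replicate 1 arrays. Bid, which links Casp8 to mitochondria, had -0.06 (SE 0.42). Bcl2l11, the BH3-only protein Bim, had the lowest difference of the set, -0.55 (SE 0.34), with 7.44, 7.51 and 8.26 against 6.61, 7.51 and 7.45, and was level in pair 2. Dropping mimic replicate 1 gave -0.26, and dropping scramble replicate 3 gave -0.29.

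In the apoptosome, Apaf1 had a log2 difference of -0.06 (SE 0.38) and Casp9, the initiator caspase it activates, had 0.09 (SE 0.16, 95% interval -0.28 to 0.46). The 3 survival genes tested also had higher means with the mimic. Bcl2l1, which encodes Bcl-xL, had 0.26 (SE 0.14), Mcl1 had 0.25 (SE 0.18) and the caspase inhibitor Xiap had 0.21 (SE 0.24). Bcl2l1 read 11.27, 11.56 and 11.25 on scramble and 11.60, 11.79 and 11.47 on mimic arrays, was higher in each pair by 0.22 to 0.33, and had 0.62 (SE 0.30) on a second, dimmer feature. Mcl1, on its brighter feature, went to 0.07 and Xiap to -0.01 without scramble replicate 1. A second Mcl1 feature, with a mean log2 signal of 10.44 against 10.66, had 0.32 (SE 0.18). Its mimic values, from 10.47 up, all lay just above its scramble values, which reached 10.45. Bcl2, below the filter, read 7.07 to 7.70 on scramble and 6.77 to 7.15 on mimic arrays. None of these genes passed in the limma fit (adjusted p = 0.972 for Bcl2l1).

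**Figure D4:**
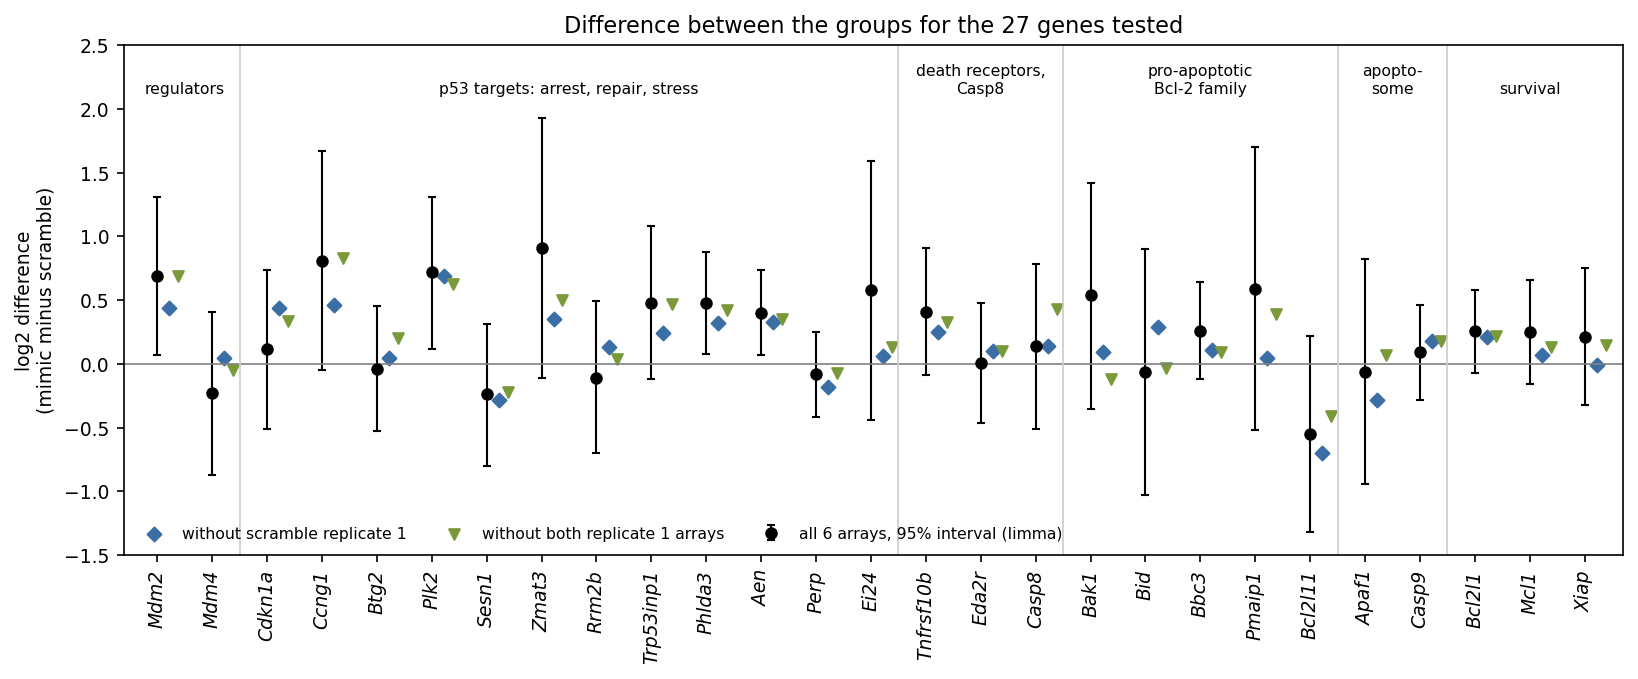
Log2 difference, mimic minus scramble (y axis), of the 27 genes tested (x axis, by role), with 95% intervals from limma (black), without scramble replicate 1 (blue diamonds) and with neither of the replicate 1 arrays (green triangles). The intervals of Mdm2, Plk2, Phlda3 and Aen lie above 0 before adjustment, and Zmat3, Ei24, Pmaip1 and Bak1 move most towards 0 without scramble replicate 1.

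Other genes of the same pathways had median differences nearer to 0. These lists and the genes above were all chosen with earlier results of these data known, so the comparison is not a test. Of 34 further p53 pathway genes (upstream kinases, p53 relatives and other targets) 31 were tested, of which 17 had a higher mean and 14 a lower one. Their median log2 difference was 0.06. At an unadjusted p under 0.05 in limma there were 0 of the 31, beside 1.66% of all genes higher and 1.51% lower. Without mimic replicate 1, 22 of the 31 had a higher mean and the median was 0.14. The 3 with the smallest p were Gadd45g, a growth arrest gene, with 0.42 (SE 0.20), the DNA damage recognition gene Ddb2 with -0.65 (SE 0.36) and the death-domain gene Pidd1 with 0.50 (SE 0.39). With single arrays left out Gadd45g had 0.23 to 0.58, and Pidd1 had 0.21 without scramble replicate 1. Ddb2 read 8.87, 8.71 and 8.95 on scramble and 7.41, 8.51 and 8.66 on mimic arrays, all of them lower, and its difference was -0.25 without mimic replicate 1. Of 35 further apoptosis genes 28 were tested, with 11 higher, 17 lower and a median of -0.04. The direction of this majority turned on single arrays, with 18 of 28 higher (median 0.05) without mimic replicate 1 and 8 higher (median -0.09) without scramble replicate 1, and 14 were higher without both. Of these, Hrk was higher and Bad lower at an unadjusted p under 0.05, beside the same 1.66% and 1.51% of all genes. Both encode BH3-only proteins. Bad read 10.73, 10.77 and 10.70 on scramble and 10.44, 10.19 and 10.26 on mimic arrays, a log2 difference of -0.44 (SE 0.13) that stayed between -0.51 and -0.38 with each array left out. With the mean of its features in place of the brightest one, the difference of Bad was -0.22. Hrk read 7.20, 8.39 and 7.59 against 8.74, 8.54 and 8.52, a difference of 0.88 (SE 0.36) that became 0.61 after dropping scramble replicate 1 and 0.54 after dropping both replicate 1 arrays. The third by p was Bok, a Bax relative, with -0.50 (SE 0.27), which was -0.26 without scramble replicate 1. None of them passed in the limma fit (adjusted p = 0.972 for Bad).

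**Figure D5:**
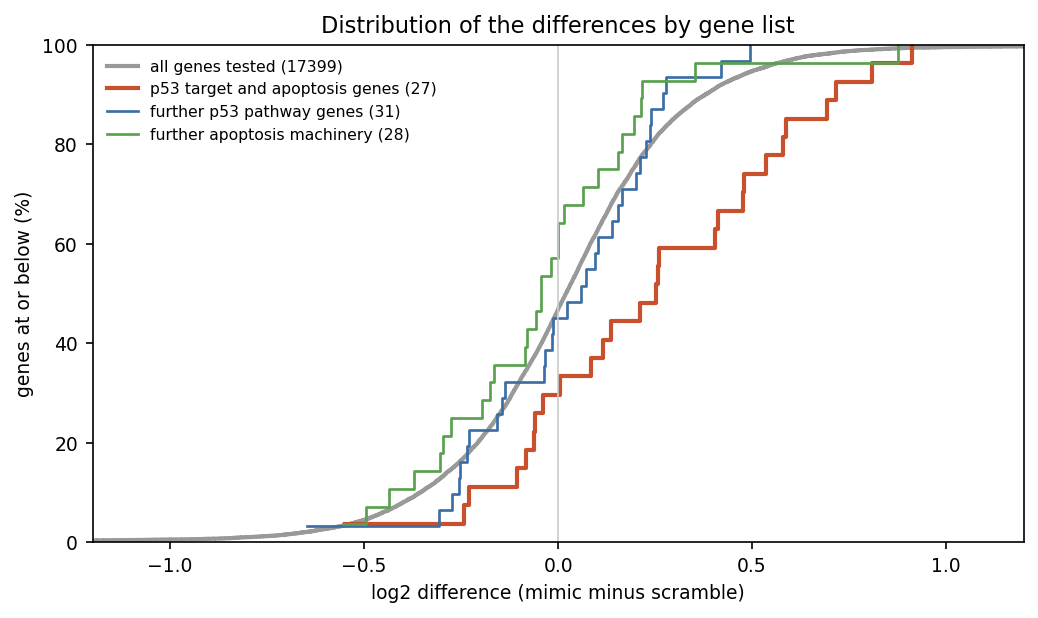
Share of genes (y axis, percent) at or below a given log2 difference, mimic minus scramble (x axis), for all 17399 genes tested, the 27 p53 target and apoptosis genes, 31 further p53 pathway genes and 28 further apoptosis genes. The curve of the 27 genes lies to the right of the others over most of the range (median 0.25), while the medians of the further lists are 0.06 and -0.04. The shorter lists were chosen with earlier results of these data known, so the curves are not a test.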

How the data were processed

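The deposited table holds log2 signal of 45220 features on 6 one-colour Cy3 arrays, made from 50 ng of total RNA each per the labels' protocols. How the arrays were scanned, background-corrected and normalized is not stated in the labels or the table. The log2 scale was read from the values the authors deposited: array medians were 7.366 to 7.376 and maxima 15.75 to 16, and the values are not centred per feature. If the arrays were set to a common scale, a change shared by most genes cannot be seen. No detection flags were used, so a dim feature has no known detection limit and its difference can be understated.

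Titles give the group and replicate number of each sample. They call the replicates biological, but matings and culture days are not given, so a p-value covers only the spread between these samples, which may be technical. No pair of the 6 arrays held identical values.

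Features were named from the platform annotation (33026 with 1 symbol, 0 with several, 12194 without), updated by Entrez identifier through a RefSeq table of GRCm38.p6 that matched 98.2%. Features in the lowest 25% by mean were left out (24769 kept), and the feature with the highest mean stood for its gene. Over 17399 genes the groups were compared in R 4.3.3 by limma 3.58.1 (two-sided, eBayes with a trend). P-values were adjusted by Benjamini-Hochberg, and 0.05 was the threshold. Each difference is the mimic mean less the scramble mean, and the median moderated standard error was 0.249 over all genes. The number of arrays limits the precision.

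The deviations from group means correlated between same-numbered arrays at 0.328, 0.349 and 0.204 for replicates 1, 2 and 3, each over the limit of 0.1 set for pairing, so the numbers were taken to pair the arrays. This is read from the data, not from the labels, and the block was then fitted to the same values. Deviations within a group cancel out for each gene, so these correlations depend on each other and are not separate checks. Differently numbered arrays also passed 0.1, at 0.185 (scramble replicate 2, mimic replicate 3) and 0.124 (the reverse numbers). Values are from the model without the block unless the block is named.

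The rule for naming genes was all 32 genes, and the 3 with the smallest unadjusted p of each further list. The genes and lists were chosen with earlier results of these data known. Alternatives were no filter and a 50% filter, the mean of a gene's features, quantile normalization, median centring, no trend, the replicate block and each array left out. The median over features and the fit without both replicate 1 arrays were added after seeing the data. Figures were drawn with matplotlib 3.10.9.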

Additional observations from a re-analysis of the deposited data

How the results depend on the processing

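With the replicate block 1 of the 17399 genes was called, and it is not among the 27 described here. In the other alternatives, leave-one-out fits included, 0 were called by limma, with 362 to 1000 genes at an unadjusted p under 0.05 (552 with all arrays and settings as reported). The number of the 27 genes with a higher mean was 18 to 22 and their median 0.13 to 0.36 when single arrays were left out. Over the other alternatives that kept these 27 genes they were 18 to 21 and 0.18 to 0.26, against a spread of 0.16 (SD) between arrays of a group. Without a filter 19 of 29 were higher (median 0.21, 759 genes at an unadjusted p under 0.05 of 22485), and with the 50% filter 17 of 24 (median 0.26). Of 402 values of single genes under an alternative, 376 kept their direction and 26, in 12 genes, did not, while 0 came to pass the threshold. With each array left out the log2 difference went from -0.08 to 0.44 in Cdkn1a, -0.41 to 0.05 in Mdm4, -0.38 to 0.29 in Bid, -0.18 to 0.02 in Perp, -0.12 to 0.11 in Btg2, -0.06 to 0.10 in Eda2r, -0.23 to 0.13 in Rrm2b, -0.28 to 0.29 in Apaf1, -0.08 to 0.43 in Casp8 and -0.01 to 0.38 in Xiap. Without both replicate 1 arrays it was -0.12 in Bak1, 0.20 in Btg2, 0.04 in Rrm2b and 0.07 in Apaf1. Trp53inp1 had -0.11 with the mean and with the median of its features, and Eda2r had -0.02 after quantile normalization and -0.0028 after median centring. The cause of these changes was not tested. Fits without 1 array leave 2 against 3, and a fit without both replicate 1 arrays 2 against 2. Signal over background is not known here.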

Other observations

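The rule that takes the brightest feature of a gene decided the value of Cdkn1a, and it can be looked at in the 288 tested genes with 10 features for 1 transcript. In 103 of them (35.8%) the log2 difference of the brightest feature lay outside the range of the other 9. Part of this share would be met for any 1 of 10 like features, so it does not measure the rule alone. The brightest feature differed from the mean of the other 9 by 0.20 log2 units in the median gene, regardless of sign, and by up to 2.21, while in Cdkn1a this difference was -0.28. Taking the mean of all 11 features, Cdkn1a had a log2 difference of 0.34, and the median over features gave 0.45. Neither passed over all genes in limma (adjusted p = 0.985 for the mean).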
